A study of Homo sapiens with 4 samples.

Results

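Metallothioneins and the genes of the cellular zinc response were examined by RNA-seq in LNCaP cells, a human line of prostate cancer that responds to androgen, treated with ailanthone (AIL), a natural small molecule. The members were chosen by name, as a list of 10 genes drawn up when their RPKM in the libraries without and with AIL were known, so their changes with AIL describe the data and are no test. The list held 7 metallothionein genes (MT1E, MT1F, MT1G, MT1H, MT1M, MT1X and MT2A), the regulator MTF1 and the zinc transporters SLC30A1 and SLC39A10. Of these 10 genes, 6 were matched by Entrez ID to the 19801 genes measured in every library, namely MT1F, MT1X, MT2A, MTF1, SLC30A1 and SLC39A10. The other members, MT1E, MT1G, MT1H and MT1M, were not analysed here.

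Cells were transfected for 24 h with an empty vector plasmid (EV) or with a plasmid labelled AR1-651. They were then kept for 12 h without or with AIL. This gave 4 conditions, EV, EV + AIL, AR1-651 and AR1-651 + AIL, with 1 library each. All 4 were grown in serum-containing medium and shared the LNCaP background. The design asks which genes AIL changed without and with AR1-651, and which genes AR1-651 changed without and with AIL. There was no replicate in any condition, so no spread between replicates, standard error or p-value could be given for any value below.

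Metallothioneins are small, cysteine-rich proteins that bind zinc, copper and cadmium. When free zinc rises, the zinc finger factor MTF1 binds short metal response elements in DNA and switches on metallothionein genes together with SLC30A1, which encodes the exporter ZnT1 that moves zinc out of the cell. SLC39A10 encodes ZIP10, an importer that brings zinc into the cytosol. Normal luminal cells of the prostate are known for accumulating zinc, and prostate cancer cells for having lost much of it.

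The deposited values were RPKM, read density per kilobase of transcript scaled to the depth of the library, and no read counts were given. In low genes of each library RPKM multiplied by transcript length clustered around 1 value, taken as the step of 1 counted read. That step put the depth, in units of 1e6 counted reads, at about 5.01 in EV, 4.72 in EV + AIL, 5.42 in AR1-651 and 5.61 in AR1-651 + AIL. Whether 1 step is a read or a read pair is unknown. Between 63.8% and 67.5% of the low values lying within 40% of the step lay within 10% of it, so the read numbers below are approximate. They also rest on GENCODE transcript lengths, which may differ from those used by the authors. Intervals are exact 95% Poisson or binomial intervals from those reads and cover counting error only, not the variation between cultures. All 7 luminal markers used were detected, with summed RPKM between 1606 and 3787. The basal marker matched (1 of 3, KRT14) reached 0.21 RPKM, the 4 fibroblast markers summed to at most 5.52, the 2 of 3 endothelial markers to at most 0.72, and the 2 of 3 leukocyte markers to between 8.67 and 12.7, nearly all of it CD68. KLK3, the gene for prostate-specific antigen, was at 286.61 RPKM in EV and at 1442.16 RPKM in AR1-651. Conditions are named below as labelled.

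The 3 metallothionein genes analysed lie in 1 cluster on chromosome 16 (GENCODE 29, GRCh38), all on the plus strand. MT2A lies at 16:56608199-56609497, MT1F at 16:56657694-56660698 and MT1X at 16:56682424-56684196. MTF1 lies at 1:37809567-37859620 and SLC30A1 at 1:211571568-211578742, both on the minus strand, and SLC39A10 at 2:195575977-195737702 on the plus strand. The metallothionein transcripts are short, at 786 nt for MT2A, 690 nt for MT1F and 450 nt for MT1X. Their lengths fell at the 7.31, 6.01 and 3.55 percentiles of the genes kept, whose median was 2872 nt. MTF1 (7972 nt), SLC30A1 (5474 nt) and SLC39A10 (5432 nt) lay at the 93.8, 82.6 and 82.3 percentiles.

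The coding sequences of the 3 metallothioneins are shown because their likeness bears on how reads can be told apart. They are taken from the GENCODE transcripts and written from start to stop codon, and capitals mark the bases of MT1X and MT1F that differ from MT2A.
MT2A coding sequence: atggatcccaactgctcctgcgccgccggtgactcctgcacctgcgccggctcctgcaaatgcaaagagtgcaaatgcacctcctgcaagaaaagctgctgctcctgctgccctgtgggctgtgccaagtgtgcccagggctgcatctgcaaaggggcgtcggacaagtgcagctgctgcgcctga
MT1X coding sequence: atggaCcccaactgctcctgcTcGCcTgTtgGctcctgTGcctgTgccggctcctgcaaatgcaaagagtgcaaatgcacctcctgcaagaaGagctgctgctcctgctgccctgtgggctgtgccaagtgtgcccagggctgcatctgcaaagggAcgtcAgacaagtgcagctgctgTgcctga
MT1F coding sequence: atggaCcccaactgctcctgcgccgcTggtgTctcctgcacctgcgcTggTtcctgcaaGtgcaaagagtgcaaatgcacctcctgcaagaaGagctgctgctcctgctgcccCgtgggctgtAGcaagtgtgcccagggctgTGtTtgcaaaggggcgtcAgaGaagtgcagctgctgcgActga

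Each coding sequence was 186 nt long, with 61 codons before the stop, of which 20 were cysteine codons. MT1X differed from MT2A at 14 positions (92.5% identity), MT1F differed from MT2A at 16 (91.4%), and MT1X from MT1F at 21 (88.7%). Over the whole transcript, 181 of the 401 stretches of 50 nt in MT1X (45.1%) also occurred in transcripts of other genes, including MT2A, MT1A, MT1G and MT1M. The shares were 4.88% for MT2A and 3.59% for MT1F, 0.896% for MTF1, and 0 of 5425 stretches for SLC30A1 and 0 of 5383 for SLC39A10. How the authors treated reads that map to several genes is not given in the sources used here, so by shared stretches the level of MT1X is the least certain of the 6, while by counting error that of MT1F is, with 0 reads in EV.

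Metal response elements carry a core that was searched here as TGCACNC or TGCGCNC on both strands, where N is any base. RefSeq promoter windows (GRCh38.p14, 250 bases before to 50 bases after a start) were present for 5 of the 6 genes analysed; MT1F had none. Sequences upstream of 4 starts are printed on the strand of the gene, with core matches in capitals, to show how their number differs between members. The core on the opposite strand reads GNGTGCA or GNGCGCA.
MT2A, chr16:56608334-56608583, plus strand: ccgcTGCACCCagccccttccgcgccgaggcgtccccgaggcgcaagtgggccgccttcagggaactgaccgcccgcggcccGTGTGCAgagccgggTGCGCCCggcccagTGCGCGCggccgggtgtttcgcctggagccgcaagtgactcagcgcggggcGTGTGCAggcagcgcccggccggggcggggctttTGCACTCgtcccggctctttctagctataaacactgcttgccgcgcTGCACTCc
MT1X, chr16:56682220-56682469, plus strand: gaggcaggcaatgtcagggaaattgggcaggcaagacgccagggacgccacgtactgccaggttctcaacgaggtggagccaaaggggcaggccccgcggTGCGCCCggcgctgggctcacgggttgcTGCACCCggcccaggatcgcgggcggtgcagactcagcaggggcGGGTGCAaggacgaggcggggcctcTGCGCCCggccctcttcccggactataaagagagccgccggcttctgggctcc
SLC30A1, chr1:211579162-211579411, minus strand: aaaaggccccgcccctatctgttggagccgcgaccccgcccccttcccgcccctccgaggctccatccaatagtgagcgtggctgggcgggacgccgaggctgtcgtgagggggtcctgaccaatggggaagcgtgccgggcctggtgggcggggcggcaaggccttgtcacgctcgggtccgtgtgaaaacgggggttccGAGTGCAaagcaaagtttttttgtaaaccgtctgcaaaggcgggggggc
SLC39A10, chr2:195656708-195656957, plus strand: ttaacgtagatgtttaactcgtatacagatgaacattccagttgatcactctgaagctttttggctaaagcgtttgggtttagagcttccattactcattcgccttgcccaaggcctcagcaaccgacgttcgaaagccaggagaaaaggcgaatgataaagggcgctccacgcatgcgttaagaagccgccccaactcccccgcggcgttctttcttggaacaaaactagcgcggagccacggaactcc

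The MT2A window held 8 core matches, 7 of them upstream, whose first bases lay at -246, -168, -153, -139, -88, -54 and -8, counted back from -1 at the base before the start, and 1 after the start at 31. MT1X held 4, all upstream, at -150, -122, -78 and -53. SLC30A1 held 2, at -49 and at 25, counted from a RefSeq start that lies outside the GENCODE transcript used for its length. The GENCODE genes of MT2A and SLC39A10 contain the whole stretch printed for each, and that of MT1X contains part of its stretch. Upstream is thus meant from the RefSeq starts alone. The SLC39A10 window printed held 0 and a second RefSeq start of the gene held 1, at 34 after the start, while the MTF1 window held 0. Among all 35116 RefSeq windows of this length, 29.6% held at least 1 match, 8.6% at least 2, 0.601% at least 4 and 0.0199% (7 windows) at least 8. A match is a description of the letters in the window and not a measured binding site.

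With AIL, 4 of the 6 genes were raised in cells with the empty vector. The metallothioneins MT1F, MT1X and MT2A and the exporter SLC30A1 were each higher by at least 2-fold in EV + AIL than in EV, the importer SLC39A10 was lower, and MTF1 lay within 2-fold. The same 4 genes were raised and the same 1 lowered in AR1-651 + AIL against AR1-651. Changes are differences of log2(RPKM + 1), which understate the change of low genes, over 14626 genes that reached an RPKM of 1 in any library. All 6 members passed that filter, and a gene was called raised or lowered at 2-fold or more. Of the 14626 genes, 9.53% were raised and 9.03% lowered in EV + AIL against EV. In AR1-651 + AIL against AR1-651 the shares were 14.9% and 5.74%. The members were chosen with these changes known, so nothing is read from the counts.

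MT2A, the most abundant of the 3 metallothioneins here, was at 44.21 RPKM in EV, 438.40 in EV + AIL, 27.01 in AR1-651 and 333.35 in AR1-651 + AIL. These values stood for about 174, 1627, 115 and 1470 reads. Both libraries with AIL lay far above both without it, with a log2 change of 3.28 in EV cells (9.92-fold, interval 8.48 to 11.7) and of 3.58 in AR1-651 cells (12.3-fold, interval 10.2 to 15.1). By level, MT2A stood at rank 1999 of all genes in EV and at rank 141 in EV + AIL, and moved from rank 3084 to rank 207 in AR1-651 cells. In bulk RNA a change in the number of cells expressing a gene and a change in its RNA per cell cannot be told apart.

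MT1X, a metallothionein of the same cluster, was at 12.37 RPKM in EV, 136.80 in EV + AIL, 6.83 in AR1-651 and 126.69 in AR1-651 + AIL, from about 28, 291, 17 and 320 reads. As for MT2A, the libraries with and without AIL were widely apart. The log2 change was 3.37 in EV cells (11.1-fold, interval 7.47 to 16.9) and 4.03 in AR1-651 cells (18.5-fold, interval 11.2 to 31.6). These changes stood at ranks 21 and 5 of 14626 from the highest.

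MT1F was listed at 0 in EV and was at 19.13 RPKM in EV + AIL, 2.11 in AR1-651 and 23.50 in AR1-651 + AIL, from about 0, 62, 8 and 91 reads. Against a floor of 3 reads in EV (0.867 RPKM), MT1F was at least 22.1-fold higher in EV + AIL. The 95% counting interval of the EV level, which reached 1.07 RPKM, put the lower end of the ratio at 17.3. With the pseudocount of 1 the log2 change was 4.33, rank 1 of 14626, but with EV set to its 3-read floor it was 3.43. In AR1-651 cells the log2 change was 2.98 (11.1-fold, interval 5.35 to 26.2).

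SLC30A1 was at 3.77 RPKM in EV, 75.81 in EV + AIL, 2.58 in AR1-651 and 71.16 in AR1-651 + AIL. As a long transcript it was counted with about 103, 1960, 77 and 2185 reads, more than any metallothionein with AIL. The log2 change was 4.01 in EV cells (20.1-fold, interval 16.6 to 24.9), at rank 11 of 14626, and 4.33 in AR1-651 cells (27.6-fold, interval 21.8 to 34.9), at rank 3. Its rank by level moved from 10631 to 1304 in EV cells and from 10427 to 1405 in AR1-651 cells. So the raised members included 1 long transcript beside the 3 short ones.

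SLC39A10 was at 11.19 RPKM in EV, 2.96 in EV + AIL, 12.97 in AR1-651 and 4.84 in AR1-651 + AIL, from about 305, 76, 382 and 147 reads. It was the only member lower in both libraries with AIL, by 3.78-fold in EV cells (interval 2.93 to 4.93, log2 change -1.62) and by 2.68-fold in AR1-651 cells (interval 2.22 to 3.28, log2 change -1.26). Many genes changed by more, since these changes stood at ranks 297 and 479 from the lowest.

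MTF1 was at 5.19 RPKM in EV, 6.16 in EV + AIL, 2.85 in AR1-651 and 5.63 in AR1-651 + AIL, from about 207, 232, 123 and 252 reads. The library labelled AR1-651 was the low one, and the other 3 lay close together. The change with AIL was 0.21 in EV cells, where the interval of the ratio (0.982 to 1.44) included no change, and 0.78 in AR1-651 cells (1.98-fold, interval 1.59 to 2.48). MTF1 was thus not called at 2-fold in any comparison.

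**Figure D1:**
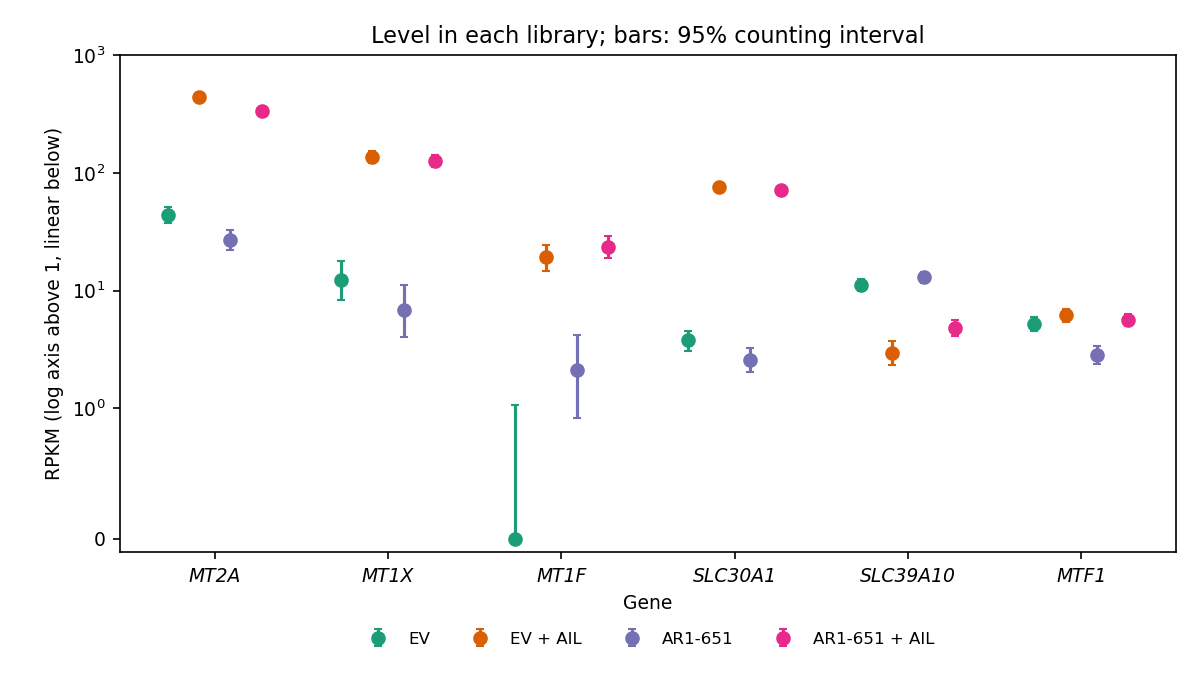
Level of the 6 genes analysed, in RPKM on an axis that is logarithmic above 1 and linear below, in the 4 libraries (1 per condition). Points are the deposited values and bars the 95% Poisson interval of the reads implied. MT2A, MT1X, MT1F and SLC30A1 lay higher and SLC39A10 lower in both libraries with AIL, and MT1F was listed at 0 in EV.

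RPKM is a level per length, so the genes could be ordered within a library. In EV the order was MT2A, MT1X, SLC39A10, MTF1, SLC30A1 and MT1F, and the intervals of MT1X (8.25 to 17.9) and SLC39A10 (9.98 to 12.5) overlapped, while other neighbours in the order did not, except MTF1 (4.50 to 5.94) and SLC30A1 (3.06 to 4.55), which met at their ends. In EV + AIL the order became MT2A, MT1X, SLC30A1, MT1F, MTF1 and SLC39A10, and no neighbours overlapped. In AR1-651 cells without AIL, MTF1 (2.37 to 3.40), SLC30A1 (2.05 to 3.24) and MT1F (0.924 to 4.21) could not be told apart at this depth. With AIL, MTF1 (4.96 to 6.37) and SLC39A10 (4.08 to 5.67) overlapped at the low end of the order. AIL thus moved SLC30A1 above SLC39A10 and MTF1 in both backgrounds.

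Summed over MT1F, MT1X and MT2A, the metallothionein level was 56.6 RPKM in EV, 594 in EV + AIL, 36.0 in AR1-651 and 484 in AR1-651 + AIL. Within the sum, MT2A held 78.1%, 73.8%, 75.1% and 68.9% in the same order. As a share of all summed RPKM, the 3 genes made up 0.0113% in EV and 0.111% in EV + AIL, and 0.00556% and 0.0854% in the AR1-651 cells. The 4 metallothioneins not analysed here are not in these sums.

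In all, 4 members were raised and 1 lowered in EV + AIL against EV, where 9.53% of the genes kept were raised and 9.03% lowered. In AR1-651 + AIL against AR1-651, 4 were raised and 1 lowered, and 14.9% of all genes were raised and 5.74% lowered. Since the members were chosen with these changes known, nothing is read from the counts. The median change over the 6 members was 3.32 and 3.28, against -0.02 and 0.13 over all genes, and with MT1F in EV at its floor the first median was again 3.32. Scaling the libraries by median ratios took the median of all genes from 0.13 to -0.03 in AR1-651 + AIL against AR1-651, and from -0.30 to -0.09 in AR1-651 against EV. Across the data, 830 genes were raised at least 2-fold in both comparisons with AIL, 86 at least 4-fold (log2 change of 2) and 16 at least 8-fold (log2 change of 3). MT1X, MT2A and SLC30A1 were among the 16, and MT1F was among the 86.

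**Figure D2:**
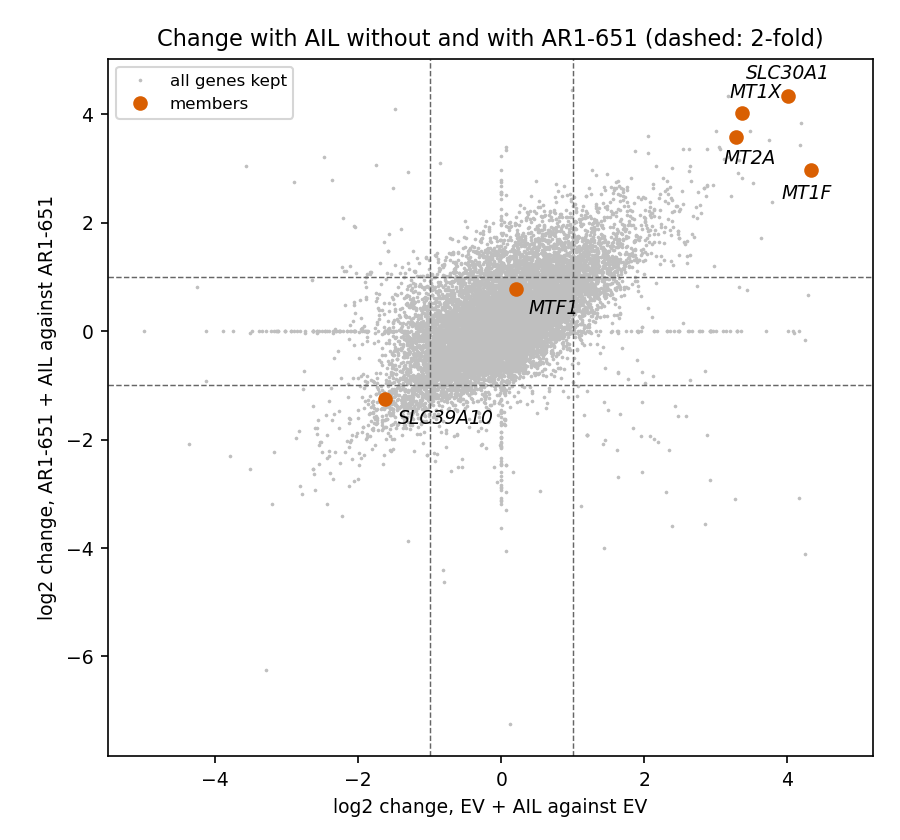
Log2 change with AIL in EV cells (horizontal axis) and in AR1-651 cells (vertical axis), on the log2(RPKM + 1) scale, for the 14626 genes kept (grey) and the 6 members (orange). MT1X, MT2A, SLC30A1 and MT1F lay at the upper right edge of all genes, SLC39A10 at lower left, and MTF1 between the dashed 2-fold lines.

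The change with AIL in AR1-651 cells minus that in EV cells was 0.66 for MT1X, 0.57 for MTF1, 0.36 for SLC39A10, 0.32 for SLC30A1, 0.30 for MT2A and -1.35 for MT1F. These differences were not tested, as each rests on 4 single libraries. The median change of all genes also differed, being 0.13 in AR1-651 cells and -0.02 in EV cells. Centred on genes of similar transcript length, the changes in EV and AR1-651 cells were close for the long transcripts. They were 0.45 and 0.44 for MTF1, -1.47 and -1.51 for SLC39A10, and 4.16 and 4.09 for SLC30A1. They stayed apart for MT1X (3.30 and 4.06), MT2A (3.09 and 3.64) and MT1F (4.17 and 3.01). The difference of MT1F rests on the value listed at 0 in EV.

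Without AIL, 5 of the 6 members lay within 2-fold between AR1-651 and EV. In that comparison 4.01% of all genes were raised and 11.6% lowered, and the median change was -0.30 over all genes and -0.55 over the members. The median over the members turned to 0.08 when changes were centred on genes of similar transcript length. The members did not move alike under that centring. MTF1 was then at 0.03 and SLC30A1 at 0.13, while MT2A was at -0.96 and MT1X at -0.87. SLC39A10 was at 0.75 and MT1F at 1.41. The ratios below are without that centring. MTF1 was 0.549 times its EV level (interval 0.436 to 0.690, log2 change -0.69), MT2A 0.611 times (interval 0.479 to 0.778, log2 change -0.69) and SLC30A1 0.684 times (interval 0.508 to 0.938, log2 change -0.41). MT1X was 0.552 times its EV level, with an interval of 0.288 to 1.06 that included no change, and SLC39A10 was 1.16 times its EV level (interval 0.994 to 1.35). These 4 genes with lower values, MTF1, MT2A, SLC30A1 and MT1X, moved the same way as the median of all genes. The 1 member called raised was MT1F, with 8 reads against 0. It was at least 2.43-fold above its 3-read floor in EV, the 95% counting interval of the ratio began at 1.58, and the log2 change of 1.64 became 0.74 with EV at the floor, within 2-fold.

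With AIL in both, AR1-651 + AIL against EV + AIL, 0 of the 6 members were called, and 1.46% of all genes were raised and 3.53% lowered. The median over the members was -0.10, against -0.03 over all genes. SLC30A1 was 0.939 times (interval 0.883 to 0.998) and MT1X 0.926 times (interval 0.787 to 1.09) its level in EV + AIL. MT2A was at 0.760 times that level (interval 0.708 to 0.817) and MT1F at 1.23 times (interval 0.885 to 1.73). SLC39A10 was the member farthest apart, at 1.64 times (interval 1.23 to 2.18, log2 change 0.56).

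Other genes of zinc handling were taken from lists compiled with earlier results known, and their counts are set beside the shares of all genes called. Of 9 further exporter genes of the SLC30 family, 6 passed the filter on low values. In EV + AIL against EV, 0 were raised and 1 was lowered, with a median change of -0.57, where 9.53% of all genes were raised and 9.03% lowered. In AR1-651 + AIL against AR1-651, 0 of the 6 were called and the median was -0.14, where 14.9% of all genes were raised and 5.74% lowered. The gene lowered was SLC30A4, a transporter of intracellular vesicles, at 85.07 RPKM in EV, 27.20 in EV + AIL, 65.15 in AR1-651 and 34.24 in AR1-651 + AIL. Its log2 change was -1.61 in EV cells (0.297 to 0.344 times, counting interval) and -0.91 in AR1-651 cells. Among the SLC30 genes that passed the filter, SLC30A1 was the only one raised with AIL.

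In AR1-651 against EV, the 6 exporter genes had a median of -0.49 and 1 was lowered (11.6% of all genes), SLC30A6, a transporter of the Golgi. It was at 10.13 RPKM in EV, 6.47 in EV + AIL, 4.42 in AR1-651 and 5.44 in AR1-651 + AIL, with a log2 change of -1.04 in that comparison (0.344 to 0.544 times). With AIL in both, 0 were called and the median was 0.13, where 1.46% of all genes were raised and 3.53% lowered.

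Of 13 further importer genes of the SLC39 family, 12 were matched and 10 passed the filter. With AIL, 0 were raised and 1 was lowered in EV cells (median -0.43), and 0 were raised and 2 lowered in AR1-651 cells (median -0.38). Of all genes, 9.53% were raised and 9.03% lowered in EV cells, and 14.9% were raised and 5.74% lowered in AR1-651 cells. SLC39A11 was at 15.68 RPKM in EV, 4.91 in EV + AIL, 13.43 in AR1-651 and 5.21 in AR1-651 + AIL, so that both libraries with AIL lay below both without, with log2 changes of -1.50 and -1.22. SLC39A13, an importer of the secretory pathway, was at 23.99, 11.93, 17.66 and 8.06 RPKM in the same order, with log2 changes of -0.95 and -1.04. SLC39A6, whose product ZIP6 pairs with ZIP10, was at 40.54, 27.88, 45.99 and 35.79 RPKM and was not called, with log2 changes of -0.52 and -0.35. For AR1-651 the 10 importer genes had medians of -0.08 without and -0.14 with AIL, and 0 were called. The shares of all genes were 4.01% raised and 11.6% lowered without AIL, and 1.46% and 3.53% with it.

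**Figure D3:**
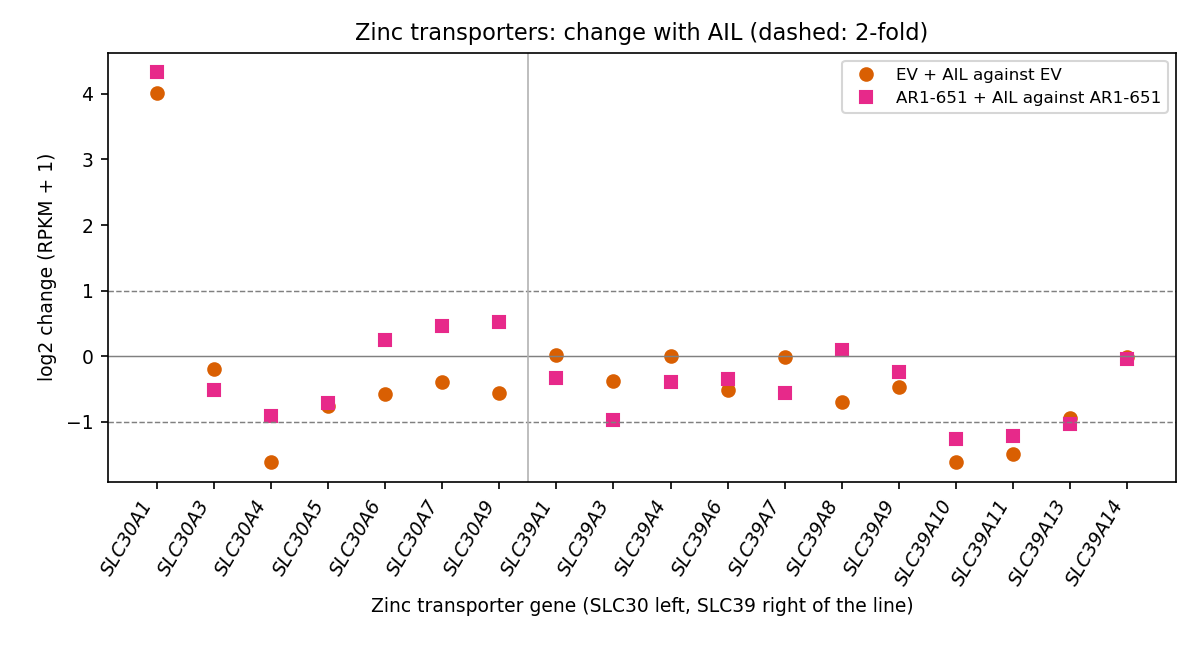
Log2 change with AIL, on the log2(RPKM + 1) scale, of the zinc transporter genes that passed the filter, SLC30 exporters to the left and SLC39 importers to the right of the vertical line. Circles are EV cells and squares AR1-651 cells. SLC30A1 stood above 4 in both, and SLC39A10 and SLC39A11 stood below the lower dashed 2-fold line in both.

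MTF1 and metallothioneins also respond to copper, so 10 genes of copper handling were counted, all of which passed the filter. With AIL, 0 of the 10 were called in either background, with medians of 0.04 in EV cells and -0.26 in AR1-651 cells. Of all genes, 9.53% were raised and 9.03% lowered in EV cells, and 14.9% raised and 5.74% lowered in AR1-651 cells. In AR1-651 against EV 1 was lowered, ATP7A, the copper-exporting ATPase, at 5.07 RPKM in EV, 3.33 in EV + AIL, 1.99 in AR1-651 and 4.29 in AR1-651 + AIL. That change was -1.02, and the median of the 10 was 0.13, where 4.01% of all genes were raised and 11.6% lowered. With AIL in both, 0 were called, where 1.46% of all genes were raised and 3.53% lowered.

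Among 10 further metallothionein genes and pseudogenes, 2 were matched and 1 passed the filter. The pseudogene MT1DP was at 1.71 RPKM in EV, 0.60 in EV + AIL, 1.04 in AR1-651 and 2.03 in AR1-651 + AIL, each from 1 or 2 reads, so no change could be seen at this depth. MT1JP was listed at 0 in all libraries but AR1-651, where it was at 0.48 RPKM from 1 read. MT3, the metallothionein of brain, was not analysed here.

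Genes around the cluster were examined next. Within 500 kb of the start of MT2A, 8 other genes passed the filter, MT1DP with its 1 or 2 reads among them. With AIL, 0 of them were raised and 1 lowered in EV cells, and 1 was raised and 1 lowered in AR1-651 cells, with medians of -0.28 and 0.02. Over all genes the shares raised and lowered were 9.53% and 9.03% in EV cells and 14.9% and 5.74% in AR1-651 cells. The lowered gene was HERPUD1, a membrane protein of endoplasmic reticulum-associated degradation whose start lies 323.8 kb from that of MT2A. It was at 50.35 RPKM in EV, 17.00 in EV + AIL, 73.54 in AR1-651 and 15.52 in AR1-651 + AIL, with log2 changes of -1.51 and -2.17. OGFOD1, a hydroxylase of a ribosomal protein on the other side of the cluster, was at 19.51, 39.15, 21.40 and 45.42 RPKM, with log2 changes of 0.97 and 1.05. For AR1-651, 0 of the 8 were called without or with AIL, with medians of -0.32 and -0.02. Of all genes, 4.01% were raised and 11.6% lowered without AIL, and 1.46% and 3.53% with it. NUP93, the nearest gene kept beyond MT1X, 121.9 kb from the start of MT2A, lay within 2-fold in both comparisons with AIL.

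**Figure D4:**
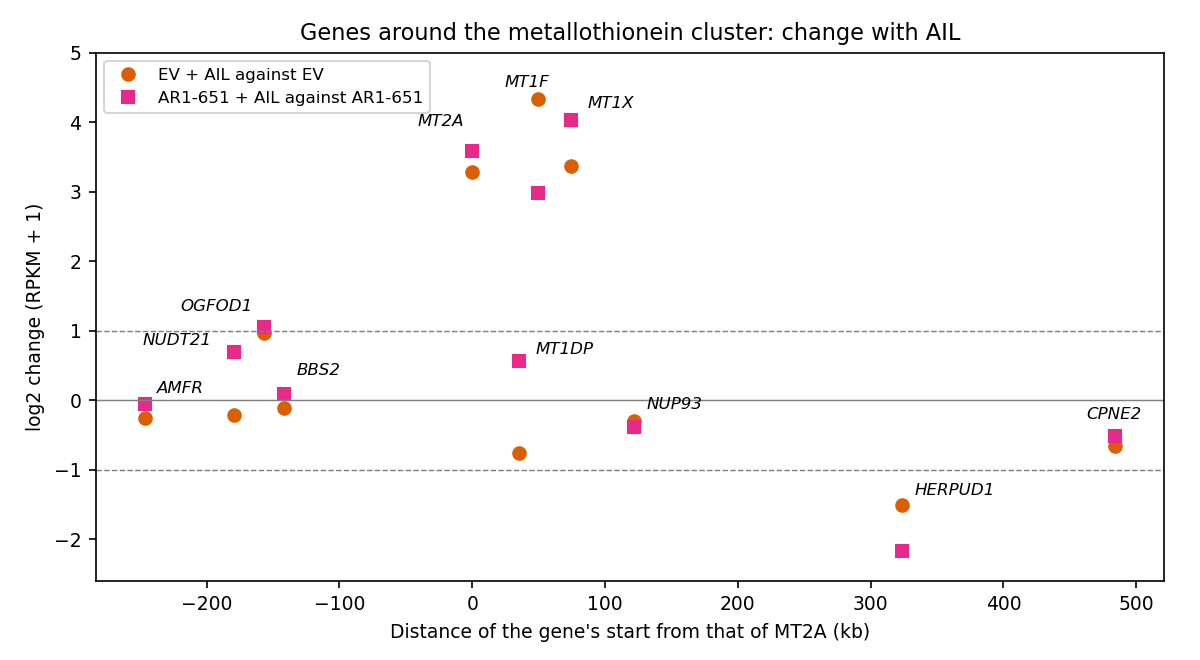
Log2 change with AIL, on the log2(RPKM + 1) scale, against the distance in kb of each gene's start from that of MT2A, for the genes that passed the filter. Circles are EV cells and squares AR1-651 cells, and dashed lines mark 2-fold. MT2A, MT1F and MT1X stood at or above 2.98, and the 2 values of MT1DP rest on 1 or 2 reads per library.

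The genes most like the metallothioneins were ranked by the Euclidean distance of their centred log2(RPKM + 1) values from the mean of MT1F, MT1X and MT2A over the 4 libraries, among 8330 genes that reached an RPKM of 10 in any library. The nearest was MIR4523, a microRNA gene (distance 0.12), at 0, 12.36, 0 and 10.43 RPKM. Its reads were not worked out here, and in so short a gene such RPKM values can rest on few reads. Next was TXNIP, which encodes the thioredoxin-interacting protein (distance 0.181), at 133.93 RPKM in EV, 1506.41 in EV + AIL, 118.16 in AR1-651 and 1528.93 in AR1-651 + AIL. JUN, a subunit of the AP-1 factor (distance 0.353), the linker histone gene H1-4 (0.397) and the antiproliferative gene BTG2 (0.506) followed. SLC30A1 was at 0.667, and MT1X, MT2A and MT1F themselves at 0.596, 0.599 and 1.15 from their own mean. So other genes lay nearer to the mean of the metallothioneins than each of the 3 did. With 8330 genes ranked over 4 libraries, and a mean that includes MT1F listed at 0 in EV, this can follow from the method alone. With 4 single libraries the distance describes a pattern and not a shared control.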

How the data were processed

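RNA was from LNCaP cells, and the labels name both a ribosomal RNA depletion kit and oligo(dT) enrichment. The submitters' processing notes name BWA 0.7.10-r789 and hg19; the counting tool and gene annotation are not given in the sources used here. The authors deposited RPKM values with 2 decimals per Entrez gene and library. Symbols were found for 19703 of 19801 genes. Changes were differences of log2(RPKM + 1) over genes reaching an RPKM of 1 in any library, called at 2-fold, with Python 3.11.15, NumPy 2.4.6, pandas 2.3.3, SciPy 1.17.1 and matplotlib 3.10.9. Depth was inferred from steps in RPKM times GENCODE 29 transcript length; the ratio intervals are conditional binomial intervals. The steps and changes were tested on simulated data. GRCh38 positions locate genes only and were not mixed with hg19. No test was run, with 1 library per condition. The members and lists were chosen with earlier results of these data known. A result on 1 gene is not reported here. Named were all members, list genes changed 2-fold in any comparison, MT3, SLC39A6 and the 5 nearest patterns. Alternatives were another pseudocount, filter, fold, scaling and centring on genes of like length or GC content.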

Additional observations from a re-analysis of the deposited data

Results flagged for a closer look

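No member changed sign between the backgrounds in its change with AIL, and among the list genes named for a 2-fold change, those given here had 2 changes of opposite sign under the same contrast. Each compares single libraries, and the difference was not tested. Signs are of the changes themselves and not relative to the median of all genes. For AIL that median was -0.02 in EV cells and 0.13 in AR1-651 cells. For AR1-651 it was -0.30 without and -0.03 with AIL. The change of ATP7A with AIL was -0.49 in EV cells and 0.82 in AR1-651 cells, a difference of 1.31 in log2, which is also the difference between its changes with AR1-651 (-1.02 without and 0.29 with AIL). The intervals of its ratio with AIL were 0.523 to 0.815 in EV cells and 1.68 to 2.80 in AR1-651 cells. SLC30A6 changed with AIL by -0.58 in EV cells and by 0.25 in AR1-651 cells, a difference of 0.82. Its ratio interval in AR1-651 cells (0.962 to 1.59) included no change. With AR1-651, SLC30A4 changed by -0.38 without and 0.32 with AIL, a difference of 0.70. HERPUD1 changed by 0.54 without and -0.12 with AIL, a difference of -0.66, and its ratio interval with AIL (0.762 to 1.09) included no change. SLC39A11 changed by -0.21 without and 0.07 with AIL, a difference of 0.28, and its ratio intervals (0.703 to 1.04 and 0.748 to 1.49) both included no change. Both of its changes lay above the median of all genes. List genes without a 2-fold change were not examined by that rule. Among them, and named after their values were seen, SLC30A9 changed with AIL by -0.57 in EV cells and 0.52 in AR1-651 cells, and SLC30A7 by -0.39 and 0.46.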

How the results depend on the processing

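The members called raised or lowered were counted under 7 alternatives to the main setting, including centring on genes of like GC content, which was chosen after seeing the data. Of 56 counts 55 stayed within 1.5 times the main count, and at a 1.5-fold threshold 3 members were lowered in AR1-651 against EV (MT1X, MT2A and MTF1) where 0 were at 2-fold. Members raised in AR1-651 + AIL against AR1-651 went from 4 to 5 at 1.5-fold, by MTF1. The shares of all genes past 1.5-fold were not counted, so nothing is read from the counts at that threshold. All 6 members passed every filter on low values. Those settings could thus alter neither a member's own change nor the counts, though their counts are among the 56. Under the other settings, of 88 log2 changes with a counting interval closed at both ends, 73 moved by less than 0.5 of its width on the log2 scale and 15 by more, and 0 called changes reversed. Of 24 medians over the members, 15 differed from the main value by any amount, however small. Those under the filters on low values could not differ. The median in AR1-651 against EV ran from -0.62 to 0.08. The ranges over the alternatives for AIL in EV cells were 3.30 to 3.46 for MT1X, 3.09 to 3.41 for MT2A, 3.98 to 4.29 for SLC30A1, -1.88 to -1.47 for SLC39A10 and 4.17 to 7.59 for MT1F, whose upper end came with a pseudocount of 0.1. In AR1-651 cells they were 3.83 to 4.19, 3.36 to 3.85, 3.61 to 4.73, -2.02 to -1.26 and 2.82 to 3.42. For MTF1, which was not called, they were 0.14 to 0.45 in EV cells and 0.44 to 0.96 in AR1-651 cells. In AR1-651 against EV, values that were not called crossed 0 in MTF1 (-0.84 to 0.03) and SLC30A1 (-0.53 to 0.13). MT2A did so in AR1-651 + AIL against EV + AIL (-0.53 to 0.10). MTF1 crossed 0 with centring on genes of like length, SLC30A1 with centring on like length or GC content, and MT2A with centring on like GC content. The cause was not tested. No replicate could be left out, with 1 library per condition. No paired analysis was possible because no test was run and each condition held a single library.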

Other observations

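Matches to the metal response core were counted beside the changes with AIL. Of 11173 genes kept that had a RefSeq promoter window, 663 (5.93%) were raised at least 2-fold in both comparisons with AIL. Among the 120 genes with at least 4 core matches in a window, 4 (3.33%) were raised in both, namely CNBP, KLF11, MT1X and MT2A, and among the 37 with at least 5 it was MT2A alone (2.70%). CNBP and KLF11 were named after their values were seen. The counts are a description of these letters and libraries, with no test. The promoter window of MT1H, a member not analysed here, held 8 core matches, the same number as MT2A.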
